A study of Mus musculus with 12 samples.

Results

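The hedgehog pathway and anteroposterior genes examined here were 8 genes out of 18193 with a named probe set, and they were chosen by name: Shh, Ptch1, Smo, Gli1, Gli2, Gli3, Hhip and Hand2. Every probe set annotated to these genes alone was taken, which gave 21 of 45037 probe sets. Gli1 had 1 probe set, Hhip had 4, and the other genes had 2 or 3. RNA came from limbs of C57BL/6 mouse embryos that were Lmx1b -/- (knockout, KO) or Lmx1b +/+ (wild type, WT) at 11.5, 12.5 and 13.5 days post coitum (dpc), with 2 arrays in each of the 6 groups. Lmx1b is a LIM homeodomain factor that specifies dorsal fate in the limb mesenchyme. From forelimbs and hindlimbs, the whole bud with its girdle was dissected at 11.5 and 12.5 dpc and the zeugopod with the autopod at 13.5 dpc. Each array read a pool of limbs, and the replicates of a group came from different embryos per the series text, so p-values measure the spread between pools. Per the series text a pool held 6 limbs at 11.5 dpc, 3 at 12.5 dpc and 6 at 13.5 dpc; per the extraction protocol it held 6 throughout. The sources used here do not give the type of Lmx1b deletion.

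Sonic hedgehog is secreted by the zone of polarizing activity at the posterior margin of the limb bud and patterns the limb from thumb to little finger. It binds the receptor Ptch1, which otherwise holds back the membrane protein Smo. Active Smo changes the balance of the Gli transcription factors, of which Gli1 is an activator, Gli2 acts mainly as an activator and Gli3 largely as a repressor. Ptch1, Gli1 and Hhip are transcribed in response to the signal, and Ptch1 and Hhip bind the ligand and limit its spread. Hand2, a basic helix-loop-helix factor of the posterior bud, acts upstream of Shh and is opposed by Gli3. In the dorsal limb, Wnt7a from the ectoderm induces Lmx1b and also sustains Shh.

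Lmx1b itself was read first. On probe set 1441729_at its log2 values were 5.6 and 5.72 in KO limbs at 11.5 dpc, against 9.28 and 9.64 in WT limbs. At 12.5 dpc they were 6.50 and 7.02 in KO limbs, against 9.29 and 9.55 in WT limbs, and at 13.5 dpc 7.48 and 8.88 in KO limbs, against 10.27 and 10.19 in WT limbs. KO minus WT was -3.80, -2.66 and -2.05 at the 3 stages, and the first and second passed the test (limma adjusted p = 0.0162, 0.0251 and 0.226). The other Lmx1b probe set, 1421769_at, lay between 5.46 and 5.98 in all 12 arrays and passed at no stage. The sources used here do not say whether these probes lie in the deleted sequence.

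KO 13.5 dpc replicate 2 stood apart from the other arrays of its stage. Its Lmx1b was the highest of the 6 KO arrays. Meis1, a proximal limb gene, lay at 9.46 against 7.76 in its KO replicate and 7.12 and 7.01 in WT. The embryonic globin Hbb-bh1 lay at 12.91 against 10.48, 9.05 and 8.40, but the globin Hbb-y at 13.86 against 13.88, 13.88 and 13.80. The summed level of the 4 measured erythroid markers was 15.08, against 14.45 in its replicate and 14.37 and 14.20 in WT. The summed level of the 5 proximal limb genes was 12.16 in that array, against 10.68 in its replicate and 10.69 and 10.54 in WT. In KO 12.5 dpc replicate 2 the heat shock gene Hspa1a read 9.36, against 4.80 to 5.71 in the other 11 arrays. The limb mesenchyme gene Prrx1 lay between 12.14 and 12.56 in all 12 arrays, and 6 of the 8 limb mesenchyme markers were above the median of all values in every array, with 0 below it in all of them. The 3 measured markers of notochord and floor plate, other sources of Shh in the embryo, were below the median of all values (6.28) in all 12 arrays. The hindlimb gene Pitx1 was between 5.76 and 6.28 at 11.5 and 12.5 dpc and between 9.88 and 10.30 at 13.5 dpc. Stage, the series of array file names and, at 13.5 dpc, the dissected part and the share of hindlimb cannot be told apart, so genotypes were compared within a stage. In these bulk samples, fewer cells of a type and less RNA per cell cannot be told apart.

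**Figure D1:**
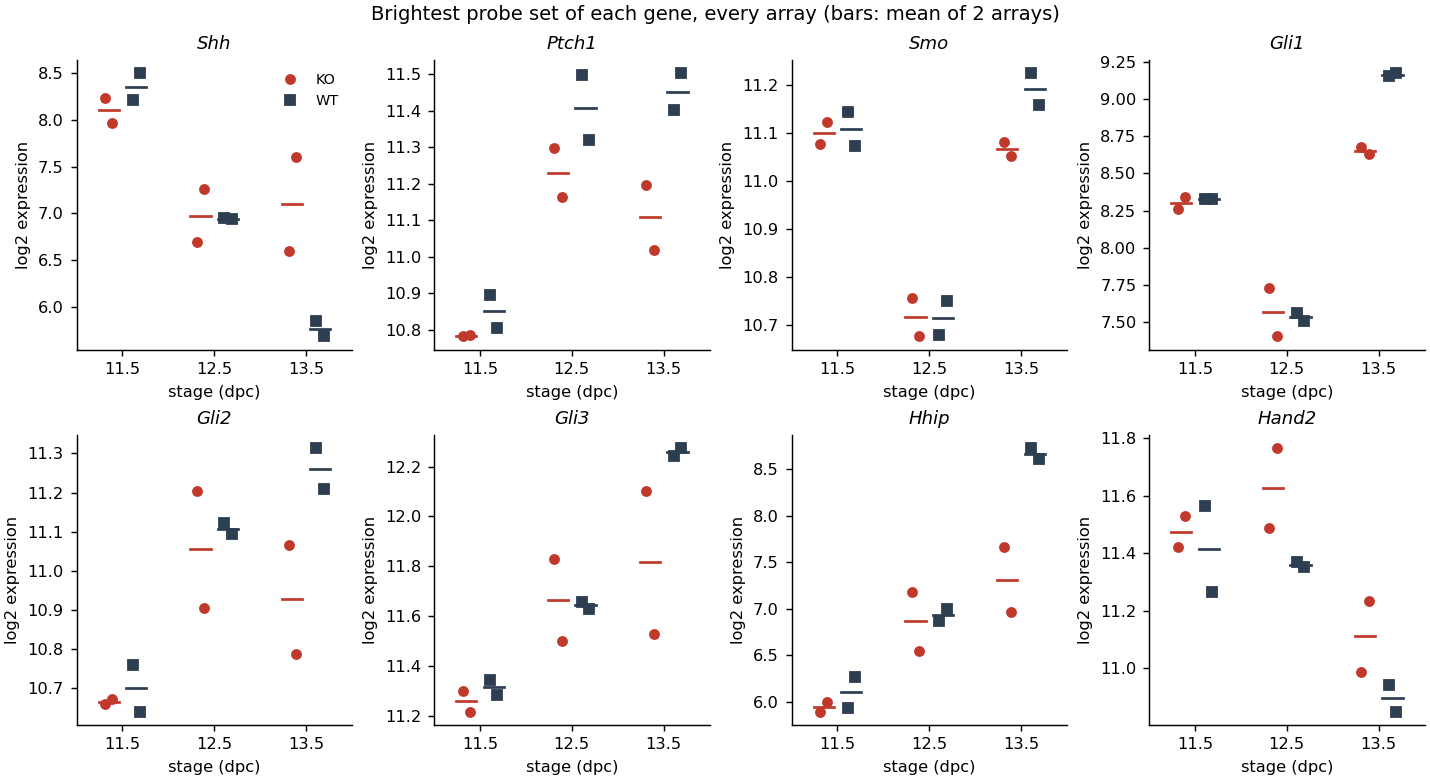
Log2 expression (y axes, separate scales) of the brightest probe set of each of the 8 genes in every array, by stage (x axes, dpc), with KO as red circles, WT as dark squares and a bar at each group's mean of 2 arrays. At 11.5 and 12.5 dpc most KO and WT points overlap, and at 13.5 dpc both KO arrays of Hhip (7.66 and 6.96) lie below both WT arrays (8.72 and 8.61) and both KO arrays of Shh (6.60 and 7.60) above them (5.85 and 5.68).

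Between genotypes, none of the 21 probe sets passed the test at any stage. On the brightest probe sets, the differences at 13.5 dpc were -1.35 on the log2 scale for Hhip, 1.33 for Shh, -0.51 for Gli1 and -0.44 for Gli3. For reference, limma called 8 of 45037 probe sets at 13.5 dpc (0.0178%), 151 at 12.5 dpc (0.335%), 4 at 11.5 dpc (0.00888%) and 32 for the mean of the 3 stages (0.0711%), and 0 of the 21 in each. The number of the 21 with an unadjusted p under 0.05 was 0 at 11.5 dpc (1.53% of all probe sets), 1 at 12.5 dpc (12.8%), 11 at 13.5 dpc (4.57%) and 8 for the mean of the stages (7.32%). At 13.5 dpc 17 of the 21 differences were negative and their median was -0.20, against 0.0047 over all probe sets. In 13 of them both KO arrays lay below both WT arrays (18.1% of all probe sets did so), and in 2 both lay above (14%). At 12.5 dpc these counts were 4 below (18.7%) and 2 above (16.9%), and at 11.5 dpc 2 below (19.9%) and 4 above (16%). Probe sets of 1 gene share its transcripts and are not independent of each other. Without KO 12.5 dpc replicate 1, 3 of the Hhip probe sets passed for the mean of the stages; 1 probe set of Ptch1, 1439663_at, passed at 12.5 dpc without WT 12.5 dpc replicate 1, and Shh passed at 13.5 dpc without KO 13.5 dpc replicate 1.

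**Figure D2:**
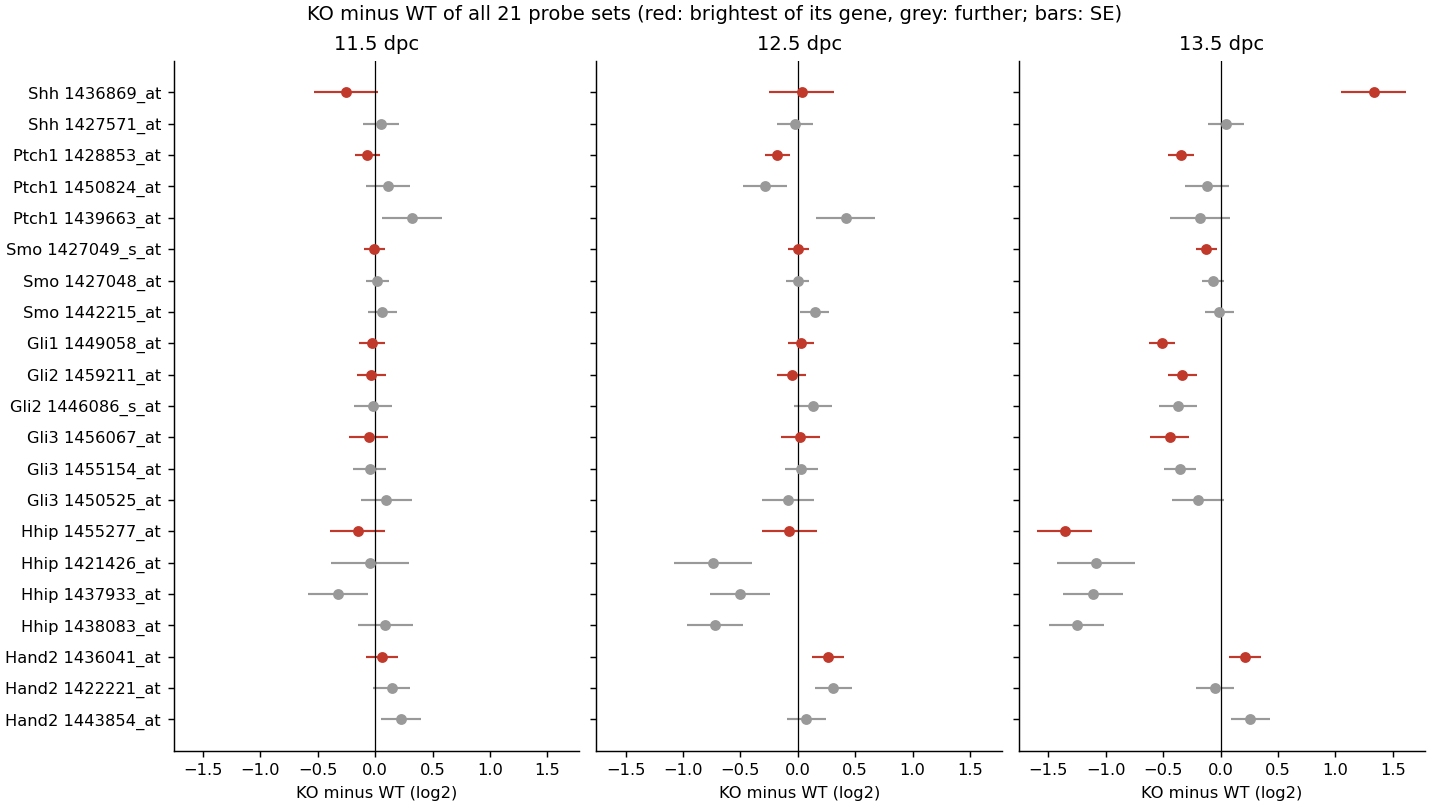
KO minus WT on the log2 scale (x axes) for the 21 probe sets (y axis, gene and probe set) at 11.5, 12.5 and 13.5 dpc, as estimates with standard errors from limma; red marks the brightest probe set of a gene and grey the others. At 13.5 dpc the 4 Hhip probe sets lie between -1.08 and -1.35 and Shh 1436869_at at 1.33, while at 11.5 dpc the estimates lie between -0.32 and 0.32.

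Shh, the ligand, fell from 11.5 to 12.5 dpc in both genotypes. Its brighter probe set, 1436869_at, gave 8.24 and 7.96 in KO limbs at 11.5 dpc, against 8.21 and 8.50 in WT limbs. At 12.5 dpc it gave 6.69 and 7.26 in KO limbs, against 6.95 and 6.94 in WT limbs, and at 13.5 dpc 6.60 and 7.60 in KO limbs, against 5.85 and 5.68 in WT limbs. The groups overlapped at 11.5 and 12.5 dpc, and at 13.5 dpc both KO arrays lay above both WT arrays, with replicate 2 the higher by about 1 unit. From 11.5 to 12.5 dpc Shh fell by 1.13 in KO limbs and fell by 1.41 in WT limbs (SE 0.28 each; limma adjusted p = 0.0212 and 0.00975). From 12.5 to 13.5 dpc the difference was 0.12 in KO limbs (adjusted p = 0.801), and it fell by 1.18 in WT limbs (adjusted p = 0.017). The difference between these later changes was 1.30 (SE 0.40) and did not pass (adjusted p = 0.381). KO minus WT at 13.5 dpc was 1.33 (SE 0.28, 95% interval 0.71 to 1.96 before adjustment, adjusted p = 0.442), 2.52-fold higher in KO limbs. It was 0.69 with the mean of both probe sets, 0.83 without KO 13.5 dpc replicate 2, and 1.83 without KO 13.5 dpc replicate 1 (adjusted p = 0.0354), the single alternative of 22 in which it passed. The part that Meis1 and Hbb-bh1, both higher in replicate 2, have in this was not tested. The other Shh probe set, 1427571_at, was dim, with every array between 4.59 and 5.69 and so under the overall median, and at 13.5 dpc it gave 4.69 and 4.83 in KO limbs, against 4.72 and 4.71 in WT limbs. Its drop from 11.5 to 12.5 dpc was -0.80 in KO limbs and -0.73 in WT limbs (adjusted p = 0.00735 and 0.0132).

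Of the 6 groups, Shh was highest in WT limbs at 11.5 dpc (mean 8.36), followed by KO limbs at 11.5 dpc (8.10), then KO limbs at 13.5 dpc (7.10) and 12.5 dpc (6.98), WT limbs at 12.5 dpc (6.94) and WT limbs at 13.5 dpc (5.76). The first pair and the 3 middle groups overlapped with their neighbours in this order. The calls on the changes of Shh with stage depended on single arrays: the drop to 12.5 dpc in WT limbs was lost without WT 11.5 dpc replicate 2, and that in KO limbs without either KO 11.5 dpc array or without KO 12.5 dpc replicate 1. The drop to 13.5 dpc in WT limbs was lost without any 1 of the 4 WT arrays of 12.5 and 13.5 dpc, and it was -0.60 with the mean of both probe sets, which was still called.

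Ptch1, the receptor, was higher at 12.5 than at 11.5 dpc in both genotypes on its brightest probe set, 1428853_at. It gave 10.78 and 10.78 in KO limbs at 11.5 dpc, against 10.90 and 10.81 in WT limbs. At 12.5 dpc it gave 11.30 and 11.16 in KO limbs, against 11.50 and 11.32 in WT limbs, and at 13.5 dpc 11.20 and 11.02 in KO limbs, against 11.40 and 11.50 in WT limbs. On this probe set both KO arrays lay below both WT arrays at each stage, by -0.07, -0.18 and -0.34 on average (SE 0.11). None of these passed (adjusted p of 0.557 at 12.5 dpc and 0.944 at 13.5 dpc). The 95% interval at 13.5 dpc was -0.59 to -0.10 before adjustment. Ptch1 rose by 0.45 in KO limbs and by 0.56 in WT limbs from 11.5 to 12.5 dpc (adjusted p = 0.0196 and 0.00926), and the calls were lost without either KO 11.5 dpc array or KO 12.5 dpc replicate 1 in KO limbs, and in WT limbs when replicate 2 of 11.5 dpc or replicate 1 of 12.5 dpc was left out. From 12.5 to 13.5 dpc the differences on this probe set were -0.12 in KO limbs and 0.04 in WT limbs, neither of which passed. The other 2 Ptch1 probe sets correlated weakly with this one over the 12 arrays (r = 0.23 and 0.17). With the mean of the 3 probe sets the rise to 12.5 dpc was 0.01 in KO limbs and 0.15 in WT limbs and was not called. KO minus WT at the 3 stages was 0.11, -0.29 and -0.11 on 1450824_at, and 0.32, 0.42 and -0.18 on 1439663_at. None of these passed. The step from 12.5 to 13.5 dpc was called on 1439663_at in WT limbs (0.86, limma adjusted p = 0.0425), a call kept in 8 of 19 alternatives. In KO limbs it was 0.26 and did not pass. On 1450824_at this step was 0.35 in KO limbs and 0.18 in WT limbs, and neither passed.

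Smo, which Ptch1 holds back, dipped at 12.5 dpc in both genotypes. Its brightest probe set, 1427049_s_at, gave 11.08 and 11.12 in KO limbs at 11.5 dpc, against 11.14 and 11.07 in WT limbs. It gave 10.76 and 10.68 in KO limbs at 12.5 dpc, against 10.68 and 10.75 in WT limbs, and 11.08 and 11.05 in KO limbs at 13.5 dpc, against 11.22 and 11.16 in WT limbs. Smo fell by 0.38 in KO limbs and fell by 0.39 in WT limbs to 12.5 dpc (adjusted p = 0.0176 and 0.0179), and rose by 0.35 in KO limbs and by 0.48 in WT limbs to 13.5 dpc (adjusted p = 0.0265 and 0.00685). KO minus WT was within 0.13 at every stage, and its 95% interval at 13.5 dpc was -0.33 to 0.08. A second probe set, 1427048_at, followed it with r = 0.97, whereas the third, 1442215_at, was far dimmer, between 3.28 and 3.62 in every array. The Smo calls also depended on the setting: with the mean of the 3 probe sets both calls in KO limbs were lost (-0.24 and 0.24). The calls to 12.5 dpc were lost without WT 11.5 dpc replicate 1 or 2 or WT 12.5 dpc replicate 1 in WT limbs and without KO 11.5 dpc replicate 1 or 2 or KO 12.5 dpc replicate 2 in KO limbs, and those to 13.5 dpc without WT 13.5 dpc replicate 1, and without KO 12.5 dpc replicate 2 or KO 13.5 dpc replicate 1.

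Hhip, the hedgehog-binding inhibitor whose gene responds to the signal, rose from 11.5 to 12.5 dpc in both genotypes and again to 13.5 dpc in WT limbs on its brightest probe set. Its brightest probe set, 1455277_at, gave 5.90 and 6.00 in KO limbs at 11.5 dpc, against 5.94 and 6.27 in WT limbs, and 7.18 and 6.55 in KO limbs at 12.5 dpc, against 6.87 and 7.0 in WT limbs. At 13.5 dpc it gave 7.66 and 6.96 in KO limbs, against 8.72 and 8.61 in WT limbs. On this probe set the groups overlapped at 11.5 and 12.5 dpc, and at 13.5 dpc both KO arrays lay below both WT arrays; the lower KO array was replicate 2. On 2 of the other 3 probe sets the groups were already apart at 12.5 dpc, with KO lower: KO minus WT there was -0.74 on 1421426_at and -0.72 on 1438083_at, and neither passed (adjusted p = 0.397 and 0.232). Hhip rose by 0.92 in KO limbs and by 0.84 in WT limbs from 11.5 to 12.5 dpc (SE 0.24; adjusted p = 0.0253 and 0.0392). The same step in KO limbs was called on 1437933_at (1.05) but not on 1421426_at (0.19, adjusted p = 0.746) or 1438083_at (0.38, adjusted p = 0.313), and with the mean of the 4 probe sets it was 0.64 and was not called. In WT limbs 1421426_at did not pass (0.89, adjusted p = 0.0999), whereas the mean of the probe sets did. From 12.5 to 13.5 dpc the difference of 0.45 in KO limbs did not pass (adjusted p = 0.224), while Hhip rose by 1.73 in WT limbs (adjusted p = 0.00178), a call kept in 20 of 20 alternatives. On the other probe sets the later difference in KO limbs was 0.82, 0.23 and 0.76 and passed on none. In WT limbs it was 1.17, 0.84 and 1.29 and passed on each. These WT calls were kept in 14 of 19 alternatives on 1421426_at and in 7 of 19 on 1437933_at. The difference between the later changes was -1.28 (SE 0.34) on the brightest probe set and did not pass (adjusted p = 0.343, not called in any of 20 alternatives). It was -0.35, -0.61 and -0.53 on the other 3 and -0.69 with the mean of the probe sets, so its size depended on the probe set read.

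At 13.5 dpc, KO minus WT of Hhip was -1.35 (SE 0.24, 95% interval -1.89 to -0.82 before adjustment, adjusted p = 0.267), 2.56-fold lower in KO limbs. It was -1.01 without KO 13.5 dpc replicate 2. The other 3 Hhip probe sets gave -1.08, -1.11 and -1.25 and followed the brightest over the 12 arrays with r from 0.93 to 0.96. The probe set with -1.25, 1438083_at, was dim, above the overall median in 2 of the 12 arrays. Averaged over the 3 stages Hhip was lower in KO limbs by -0.53 on the brightest probe set and by -0.62, -0.65 and -0.63 on the others, and none passed (adjusted p from 0.249 to 0.466). The summed level of 6 chondrocyte markers at 13.5 dpc was 13.71 and 13.16 in KO limbs, against 13.90 and 13.98 in WT limbs, and the summed level of proximal limb genes differed as given above; their part in the Hhip difference was not tested. The rise to 12.5 dpc rested on single arrays, since that in WT limbs was kept in 11 of 20 alternatives and that in KO limbs in 16 of 20.

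The 250 bases upstream of the start of Ptch1 and Hhip are shown because these genes, both of which respond to hedgehog signal, both rose from 11.5 to 12.5 dpc in both genotypes on their brightest probe sets. They are from RefSeq on GRCm38.p6, at chr13:63565736-63565985 (minus strand) for Ptch1 and chr8:80058009-80058258 (minus strand) for Hhip. They run 5′ to 3′ along the gene's strand, and capitals mark the first window with the fewest mismatches to the Gli-binding consensus GACCACCCA, read on both strands.
Ptch1: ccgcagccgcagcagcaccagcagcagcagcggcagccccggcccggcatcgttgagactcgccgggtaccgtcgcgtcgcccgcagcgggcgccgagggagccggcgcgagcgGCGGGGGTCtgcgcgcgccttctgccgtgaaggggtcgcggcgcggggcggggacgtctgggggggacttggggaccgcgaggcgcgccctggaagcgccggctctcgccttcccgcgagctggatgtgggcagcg
Hhip: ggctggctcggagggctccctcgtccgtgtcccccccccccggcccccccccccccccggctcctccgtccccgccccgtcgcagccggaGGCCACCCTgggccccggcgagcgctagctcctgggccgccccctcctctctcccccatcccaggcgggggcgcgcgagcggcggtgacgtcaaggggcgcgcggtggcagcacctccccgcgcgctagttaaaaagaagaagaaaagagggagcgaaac
Hhip held a window 2 mismatches from the consensus, 160 bases before its start, and Ptch1 held none nearer than 3. An exact match stood in none of the 6 of the 8 genes with a promoter in the table and in 0.225% of 32841 mouse promoters, and a window with at most 2 mismatches in 51.8% of them. Such windows are common at this length and say nothing of binding. GC content was 78.4% for Ptch1 and 76% for Hhip, against a median of 52.4% over all promoters.

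The Gli factors differed from one another in how they changed with stage. Gli1, the activator that the signal induces, fell to 12.5 dpc and rose to 13.5 dpc in both genotypes. Its single probe set, 1449058_at, gave 8.26 and 8.34 in KO limbs at 11.5 dpc, against 8.33 and 8.33 in WT limbs. At 12.5 dpc it gave 7.73 and 7.41 in KO limbs, against 7.57 and 7.51 in WT limbs, and at 13.5 dpc 8.68 and 8.63 in KO limbs, against 9.15 and 9.17 in WT limbs. The groups overlapped at the first and second stage, and both KO arrays were below both WT arrays at 13.5 dpc. Gli1 fell by 0.73 in KO limbs and fell by 0.79 in WT limbs to 12.5 dpc (SE 0.11; adjusted p = 0.00232 and 0.00267), and rose by 1.09 in KO limbs and by 1.62 in WT limbs to 13.5 dpc (adjusted p = 0.000606 and 0.000127). These calls were kept in 20 of 20 alternatives each. KO minus WT at 13.5 dpc was -0.51 (SE 0.11, 95% interval -0.76 to -0.26 before adjustment, adjusted p = 0.476), 1.42-fold lower in KO limbs, and -0.49 without KO 13.5 dpc replicate 2. The difference between the later changes was -0.54 (SE 0.16) and did not pass (adjusted p = 0.37).

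On the brightest probe sets, Gli1 moved opposite to Ptch1 and Hhip between 11.5 and 12.5 dpc. Between 12.5 and 13.5 dpc in WT limbs it moved with Hhip and against Shh. These contrasts depended on the probe set read: the Ptch1 rise was not called with the mean of its probe sets. The dim Shh probe set, 1427571_at, gave -0.02 from 12.5 to 13.5 dpc in WT limbs (limma adjusted p = 0.933). Ihh, the ligand of growth plate cartilage, lay at 7.67 and 7.08 in KO limbs at 13.5 dpc, against 8.37 and 8.39 in WT limbs, and rose from 12.5 to 13.5 dpc by 1.34 in KO limbs and by 1.84 in WT limbs (adjusted p = 0.0313 and 0.00792). Its KO minus WT at 13.5 dpc was -1.0 and did not pass. The rise in WT limbs held in 20 of 20 alternatives, and that in KO limbs was lost with array quality weights, without KO 12.5 dpc replicate 2 and without KO 13.5 dpc replicate 1.

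No stage change of Gli2, the second activator, passed the test. Its brightest probe set, 1459211_at, gave 10.66 and 10.67 in KO limbs at 11.5 dpc, against 10.76 and 10.64 in WT limbs, and 11.20 and 10.91 in KO limbs at 12.5 dpc, against 11.12 and 11.09 in WT limbs. At 13.5 dpc it gave 11.07 and 10.79 in KO limbs, against 11.31 and 11.21 in WT limbs. The changes nearest to the threshold were 0.39 in KO limbs and 0.41 in WT limbs to 12.5 dpc (adjusted p = 0.0621 and 0.0544), which passed in 7 of 20 and 10 of 20 alternatives. KO minus WT at 13.5 dpc was -0.33 (SE 0.13), and -0.19 without KO 13.5 dpc replicate 2.

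Gli3, the main repressor in the limb bud, was highest at 13.5 dpc in WT limbs. Its brightest probe set, 1456067_at, gave 11.30 and 11.22 in KO limbs at 11.5 dpc, against 11.35 and 11.28 in WT limbs, and 11.83 and 11.50 in KO limbs at 12.5 dpc, against 11.66 and 11.63 in WT limbs. At 13.5 dpc it gave 12.10 and 11.53 in KO limbs, against 12.24 and 12.27 in WT limbs. From 12.5 to 13.5 dpc the difference was 0.15 in KO limbs (adjusted p = 0.574), and Gli3 rose by 0.61 in WT limbs (SE 0.17, adjusted p = 0.0301). The difference between these, -0.46 (SE 0.24), did not pass (adjusted p = 0.591). KO minus WT at 13.5 dpc was -0.44 (SE 0.17), which became -0.15 without KO 13.5 dpc replicate 2; that array was the low one. The rise in WT limbs was lost without any 1 of the 4 WT arrays of 12.5 and 13.5 dpc and with the mean of its probe sets (0.51, adjusted p = 0.0527). A second probe set, 1455154_at, followed it (r = 0.95). Its later difference was 0.45 in KO limbs, which did not pass (adjusted p = 0.0548) but was called in 6 of 19 alternatives, and it rose by 0.83 in WT limbs (adjusted p = 0.00424). The remaining probe set, 1450525_at, did not show the later rise. Its difference from 12.5 to 13.5 dpc was -0.02 in KO limbs and 0.09 in WT limbs (limma adjusted p = 0.963 and 0.811). From 11.5 to 12.5 dpc it was 0.66 in WT limbs, which did not pass (limma adjusted p = 0.0706). Its KO minus WT at 13.5 dpc was -0.20 with all arrays and 0.17 without KO 13.5 dpc replicate 2.

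Hand2, the posterior factor upstream of Shh, was lowest at 13.5 dpc in both genotypes on its brightest probe set, 1436041_at. The values were 11.42 and 11.53 in KO limbs at 11.5 dpc, against 11.56 and 11.27 in WT limbs, and 11.49 and 11.76 in KO limbs at 12.5 dpc, against 11.37 and 11.35 in WT limbs. At 13.5 dpc they were 10.99 and 11.23 in KO limbs, against 10.94 and 10.85 in WT limbs. On this probe set both KO arrays lay above both WT arrays at 12.5 and 13.5 dpc, by 0.27 and 0.22 on average, and neither passed. Hand2 fell by 0.51 in KO limbs and fell by 0.46 in WT limbs from 12.5 to 13.5 dpc (SE 0.14; adjusted p = 0.0287 and 0.0399). The call was kept in 15 of 20 alternatives in KO limbs and in 12 of 20 in WT limbs, and with the mean of the probe sets the changes were -0.10 in KO limbs and -0.02 in WT limbs and were not called. It was lost in KO limbs without KO 12.5 dpc replicate 2 or KO 13.5 dpc replicate 1, and in WT limbs with a replicate block and when any WT array of 12.5 or 13.5 dpc or a KO array of 11.5 dpc was left out. On 1422221_at and 1443854_at the same step gave -0.11 and 0.33 in KO limbs, against 0.24 and 0.15 in WT limbs, and none of these passed. The other 2 probe sets did not follow it (r = 0.39 and 0.27): from 11.5 to 12.5 dpc 1443854_at fell by 1.33 in KO limbs and fell by 1.18 in WT limbs (adjusted p = 0.00103 and 0.00277), where the brightest gave 0.15 in KO limbs and -0.05 in WT limbs and did not pass. The stage at which Hand2 fell differed with the probe set read. On 1422221_at and 1443854_at the KO and WT arrays overlapped at 12.5 and 13.5 dpc. At 13.5 dpc the means were 8.73 in KO and 8.78 in WT limbs on 1422221_at, and 7.84 and 7.58 on 1443854_at.

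Over the brightest probe sets, WT limbs at 13.5 dpc were the highest of the 6 groups for Ptch1, Smo, Gli1, Gli2, Gli3 and Hhip, and the lowest for Shh and Hand2. They did not overlap with the next group in 7 of these 8 genes, and for Ptch1 they overlapped with WT limbs at 12.5 dpc. The share of all genes that were separated in this way was not computed, so the count is not read as a trait of these genes. KO limbs at 11.5 dpc were the lowest group for Ptch1, Gli2, Gli3 and Hhip, and overlapped with WT limbs at 11.5 dpc in all of these but Ptch1. For Smo and Gli1 the lowest groups were those of 12.5 dpc, where KO and WT limbs overlapped. Hand2 was highest in KO limbs at 12.5 dpc (mean 11.63), and the 4 groups of 11.5 and 12.5 dpc overlapped with their neighbours in order.

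**Figure D3:**
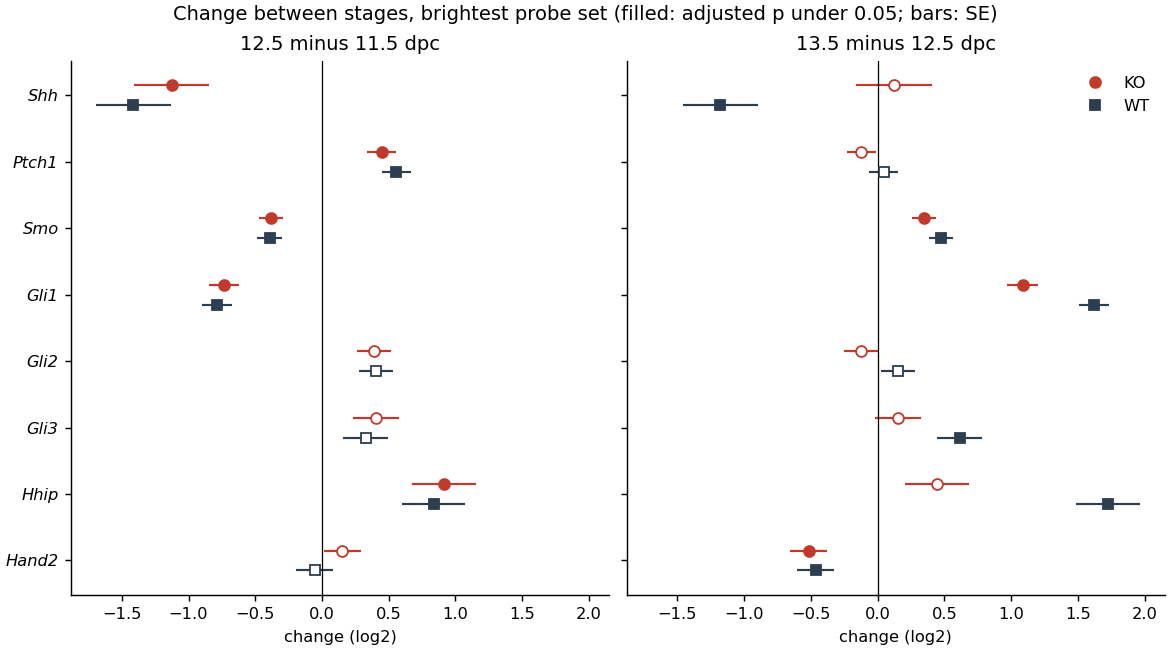
Change between consecutive stages on the log2 scale (x axes) for the brightest probe set of each gene (y axis), with KO as red circles above WT as dark squares; filled symbols passed an adjusted p of 0.05 and bars are standard errors. Gli1 fell and then rose in both genotypes, the later change of Hhip was 0.45 in KO limbs, which did not pass, and 1.73 in WT limbs, and Shh fell at the later step in WT limbs, although the difference between genotypes did not pass.

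Across the stage changes, 9 of the 21 probe sets were called from 11.5 to 12.5 dpc in KO limbs (17.1% of all probe sets) and 10 in WT limbs (16.2%). In KO limbs 3 were higher and 6 lower (8.94% and 8.16% of all probe sets), and in WT limbs 4 were higher and 6 lower (7.5% and 8.69%). From 12.5 to 13.5 dpc 4 were called in KO limbs (17.7% of all probe sets) and 12 in WT limbs (19%). In KO limbs 3 of these were higher and 1 lower (7.89% and 9.84%), and in WT limbs 10 were higher and 2 lower (9.62% and 9.39%). The median change of the 21 in WT limbs from 12.5 to 13.5 dpc was 0.43, against -0.02 over all probe sets. The difference in KO minus WT between stages was also tested, for 12.5 against 11.5, 13.5 against 12.5 and 13.5 against 11.5 dpc. By limma 0 of 45037 probe sets (0%) and 0 of the 21 were called in each. At an unadjusted p under 0.05 there were 1, 3 and 4 of the 21, against 6.97%, 9.35% and 1.64% of all probe sets. For the fits without single arrays that follow, shares over all probe sets were not computed. Leaving out single arrays moved the counts in WT limbs to as few as 2 at the first step (without WT 11.5 dpc replicate 2; 5 without WT 11.5 dpc replicate 1 and 6 without WT 12.5 dpc replicate 1) and 4 at the second (without WT 13.5 dpc replicate 2; 7, 6 and 6 without each of WT 12.5 dpc replicate 1, WT 12.5 dpc replicate 2 and WT 13.5 dpc replicate 1). In KO limbs they moved to 2, 3 and 5 at the first step without KO 11.5 dpc replicate 1, KO 11.5 dpc replicate 2 and KO 12.5 dpc replicate 1. At the second step they were 7 without KO 12.5 dpc replicate 1 and 1 without KO 12.5 dpc replicate 2 or KO 13.5 dpc replicate 1.

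**Figure D4:**
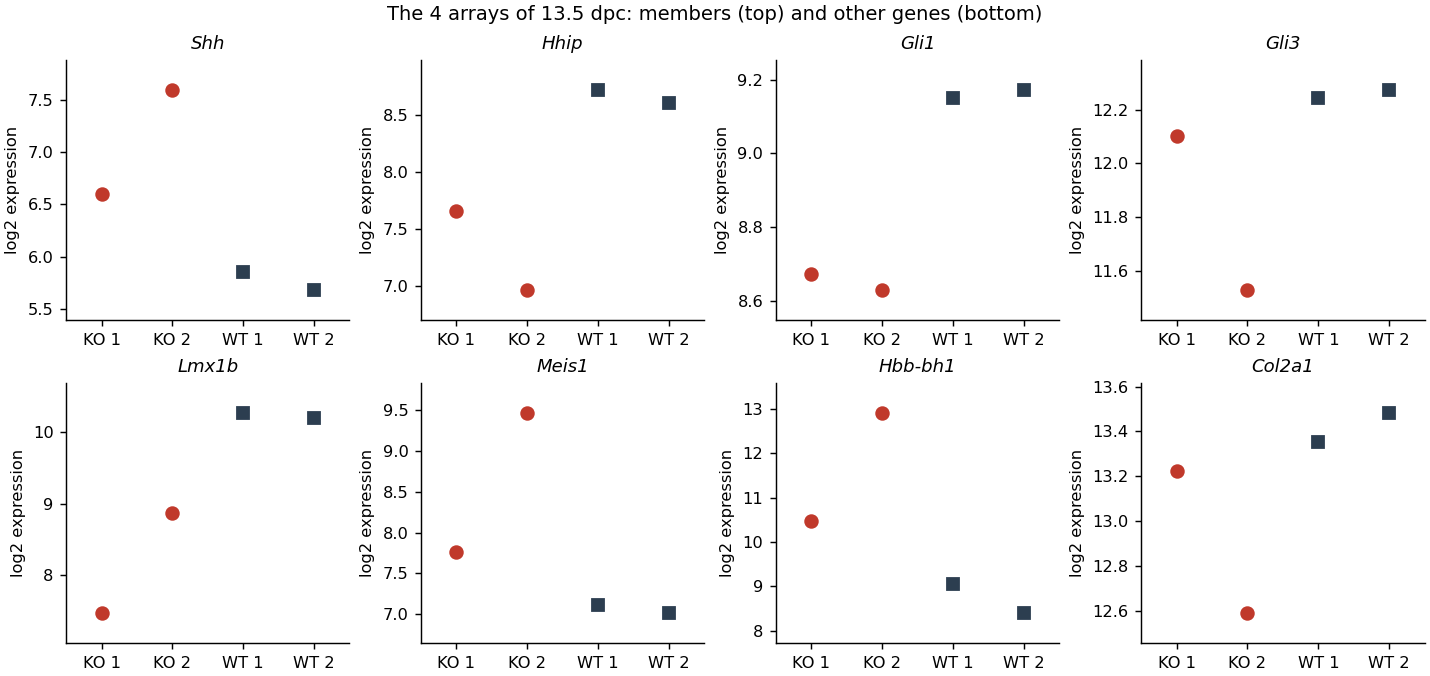
Log2 expression (y axes, separate scales) of 4 of the genes (top) and of Lmx1b, Meis1, Hbb-bh1 and Col2a1 (bottom) in the 4 arrays of 13.5 dpc (x axes, KO 1 and 2 in red, WT 1 and 2 in dark). KO replicate 2 lies apart from KO replicate 1 for Shh, Hhip and Gli3, and for Meis1 (9.46) and Hbb-bh1 (12.91), whereas Gli1 is alike in both KO arrays (8.68 and 8.63).

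The other genes of the pathway were read on the brightest probe set of each gene, in 5 lists by role. Between genotypes 1 gene passed at 13.5 dpc and 1 at 12.5 dpc, of 56 measured genes. The lists were chosen with earlier results of these data known, so these calls are not read as a trait of the lists. At 13.5 dpc the call was Foxf2, a forkhead factor that responds to hedgehog signal in mesenchyme of the gut and palate, among 16 limb targets and posterior genes (0.0275% of all genes were lower). Its values were 4.68 and 4.85 in KO limbs at 13.5 dpc, against 6.41 and 6.14 in WT limbs, a change of -1.51 (SE 0.13, adjusted p = 0.00759). Over the mean of the stages, which includes 13.5 dpc, Foxf2 was lower by -0.62 (limma adjusted p = 0.0222, with 0.121% of all genes lower). At 11.5 dpc it gave 4.43 and 4.47 in KO limbs, against 4.65 and 4.53 in WT limbs. At 12.5 dpc it gave 4.13 and 4.39 in KO limbs, against 4.52 and 4.39 in WT limbs. It was not called at either of these stages. The 13.5 dpc call was kept in 16 of 21 alternatives, and was lost without either WT 13.5 dpc array, with the 4 arrays of the stage alone, with a replicate block within the stage, and with the mean of its probe sets, where the difference was -0.68. The call over the mean was kept in 8 of 20, and was lost with a replicate block over all stages or within each, with the mean of its probe sets (-0.30), and without any 1 array of 11.5 dpc, either WT 12.5 dpc array, either KO 13.5 dpc array or WT 13.5 dpc replicate 1. Foxf2 lay below the median of all values in 11 of the 12 arrays.

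At 12.5 dpc the call was Pax9, a paired-box factor of the anterior bud, among 14 anterior genes and regulators of Shh (0.022% of all genes were higher). It gave 8.98 and 9.25 in KO limbs, against 7.80 and 7.92 in WT limbs, a difference of 1.26 (SE 0.16, adjusted p = 0.0245). It was kept in 14 of 22 alternatives and was lost when WT 12.5 dpc replicate 2 or one of the KO 13.5 dpc arrays was left out, with neither KO replicate 2 array of 12.5 and 13.5 dpc, with array quality weights, with the 4 arrays of the stage alone, with a replicate block within the stage, and with the mean of its probe sets, where it was 0.78. In KO limbs Pax9 rose by 1.43 from 11.5 to 12.5 dpc and fell by 1.18 from 12.5 to 13.5 dpc (adjusted p = 0.000518 and 0.0015). At 13.5 dpc it gave 7.91 and 7.96 in KO limbs, against 7.81 and 7.67 in WT limbs.

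**Figure D5:**
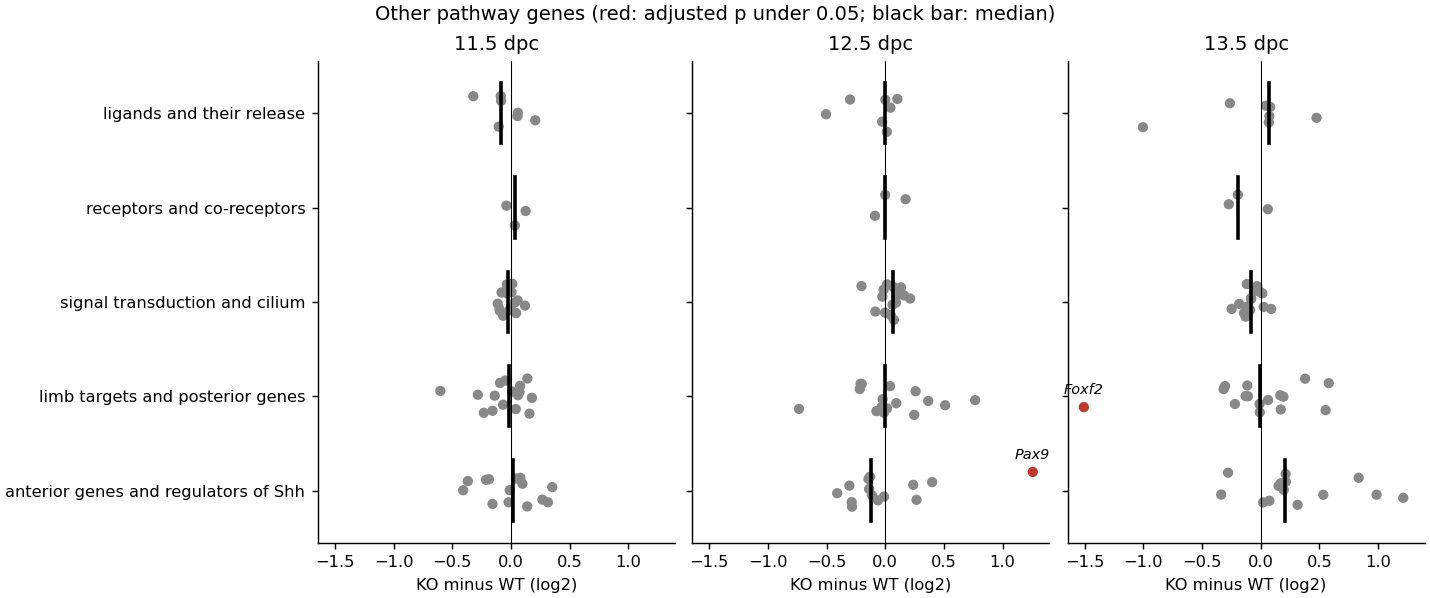
KO minus WT on the log2 scale (x axes) at 11.5, 12.5 and 13.5 dpc for the measured genes of 5 pathway lists (y axis), brightest probe set of each gene, with a black bar at the list's median and called genes in red with their names. Foxf2 (-1.51) at 13.5 dpc and Pax9 (1.26) at 12.5 dpc were called.

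The lists of ligands and their release (7 of 7 genes measured), receptors and co-receptors (3 of 4) and signal transduction and cilium (16 of 17) held no gene that passed between genotypes. Their medians at 13.5 dpc were 0.07, -0.20 and -0.08, against -0.01 over all genes. With stage, Hhat, which adds palmitate to the ligand, fell by 0.43 in KO limbs and fell by 0.64 in WT limbs to 12.5 dpc, and Disp1, which releases it, rose by 0.49 in KO limbs and by 0.45 in WT limbs to 13.5 dpc. The co-receptor Gas1 rose by 0.45 in WT limbs to 12.5 dpc, and Cdon by 0.55 in WT limbs to 13.5 dpc. Of the transducers, the Gli inhibitor Sufu fell by 0.36 in KO limbs and fell by 0.50 in WT limbs to 12.5 dpc, and the kinase gene Gsk3b rose by 0.74 in KO limbs and by 0.54 in WT limbs and then fell by 1.06 in KO limbs and fell by 0.82 in WT limbs. Evc, a cilium protein that works with Smo, rose by 0.35 in KO limbs and by 0.63 in WT limbs to 13.5 dpc.

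Among the 16 limb targets and posterior genes, Bmp2 rose by 0.98 in KO limbs and by 0.65 in WT limbs to 12.5 dpc, and the T-box gene Tbx2 fell by 0.64 in KO limbs and fell by 1.17 in WT limbs. Grem1, the BMP antagonist that links Shh to the ridge, fell by 0.96 in KO limbs to 12.5 dpc and fell by 1.1 in WT limbs to 13.5 dpc. Tbx3 fell by 0.76 in KO limbs and fell by 1.08 in WT limbs to 13.5 dpc. Of the anterior genes, Irx3 fell by 2.53 in KO limbs and fell by 2.55 in WT limbs to 12.5 dpc and rose by 1.93 in KO limbs and by 1.25 in WT limbs to 13.5 dpc. Gata6, which restrains Shh in the anterior bud, fell by 1.02 in KO limbs and fell by 1.09 in WT limbs to 12.5 dpc, and the ridge gene Fgf8 fell by 2.13 in each. In all of these the limma adjusted p was under the threshold. Of the 14 measured anterior genes and regulators, 1 rose and 5 fell to 12.5 dpc in KO limbs (5.69% and 9.66% of all genes), and as many did so in WT limbs (5.45% and 11.4%).

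The genes most like Shh over the 12 arrays, among 11548 genes above the median, were Asb4 (r = 0.98), Hoxb2, Mogat2, Tstd3 and Eme1. With the stage means taken off, they were Hbb-bh1 (r = 0.97), Asb4, Hsd11b2, Fndc3c1 and Ppp4r3b. For Gli1 they were Dusp16 (r = 0.99), Lrp10, Tap1, Six5 and Rab11fip4 on the log2 values, and Ppm1l (r = 0.98), Pbxip1, Txnip, Gm6556 and Bmpr1b with the stage means off. For Hand2 they were Gphn (r = 0.96), Igf2bp3, Smndc1, Ttk and Kif4, and Hmgcll1 (r = 0.93), Bnc1, Thoc1, Nup54 and Rif1 with the stage means off. These correlations share the 12 arrays and their pools, and the first in each case also share the stages. At 13.5 dpc both Shh (7.60) and Hbb-bh1 (12.91) were highest in KO replicate 2, the array that stood apart. The part of that array in their correlation was not tested.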

How the data were processed

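The authors deposited log2 expression values of 45101 probe sets on 12 Affymetrix mouse genome arrays. Per the submitters' processing notes RMA was the method, and neither its version nor a genome build is given in the sources used here. The 64 control probe sets were left out, and 45037 were tested. Names came from the platform annotation, in which 34945 probe sets named 1 gene, 932 several and 9160 none in the table used here, and 34741 matched a RefSeq table by gene identifier. The sorted values of the arrays differed by at most 0.242 log2 units. RMA compresses the fold changes of dim probe sets, and 2 arrays per group limit the precision. Levels were not compared between probe sets.

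For each probe set limma 3.58.1 (R 4.3.3) estimated 6 group means from the 12 arrays, with 6 residual and 4.46 prior degrees of freedom after eBayes. The 11 contrasts were tested two-sided, with p adjusted by Benjamini-Hochberg over the 45037 probe sets. A probe set was called at an adjusted p under 0.05. Standard errors are from this fit. The brightest probe set of a gene has the highest mean over the 12 arrays. Summed levels of markers add the linear values of the brightest probe sets and are given as log2. Intervals are at 95% and are not adjusted. The text names all 8 genes and their probe sets, up to 4 called genes per list and contrast with the largest change (or the 2 smallest p), and up to 5 genes most like Shh, Gli1 and Hand2; not all are printed, and marker genes and the genes with values under a doubted array were named after their values were seen. The fitting was tested on simulated data. The members, lists and rules were chosen with earlier results of these data known. Pools were taken as replicates.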

Additional observations from a re-analysis of the deposited data

How the results depend on the processing

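The 11 comparisons were refitted with other ways to pick probe sets, dim probe sets left out, an intensity trend with a robust prior, renewed quantile normalization, array quality weights, a replicate block, the 4 arrays of a stage alone, with neither KO replicate 2 array of 12.5 and 13.5 dpc, and without each array. Of the refitted values of single probe sets, 4358 kept their direction and side of the threshold or changed sign within the standard error. A further 63 newly passed, 116 no longer passed and 64 changed sign by more than the standard error, with no call. Hand2 1436041_at, which differed by 0.15 from 11.5 to 12.5 dpc in KO limbs, turned to -0.47 with the mean of the Hand2 probe sets. That difference was called (limma adjusted p = 0.0338). The mean takes in 1443854_at, which went from 8.83 to 7.51 in KO limbs, and 1422221_at, which went from 9.09 to 8.85.

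For the call counts under other settings, here and below, the shares over all genes or probe sets were not computed. These counts describe how the calls depended on the setting, not a trait of the members. With 1 probe set per gene, 8 genes were counted in place of 21 probe sets. From 11.5 to 12.5 dpc the calls were then 5 in KO limbs and 6 in WT limbs with the brightest, and 3 in KO limbs and 5 in WT limbs with the mean. From 12.5 to 13.5 dpc they were 6 in WT limbs with the brightest, and 1 in KO limbs and 4 in WT limbs with the mean, and array quality weights gave 1 in KO limbs. Leaving out each array gave 2 to 11 calls in KO limbs and 2 to 13 in WT limbs at the first step, and 1 to 7 in KO limbs and 4 to 13 in WT limbs at the second. For KO minus WT it gave 0 to 3 over the mean of the stages, 0 to 1 at 12.5 dpc and 0 to 1 at 13.5 dpc.

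The labels do not say whether replicate numbers pair the KO and WT pools. The correlation of replicate deviations between KO and WT was 0.30, -0.14 and -0.06 at 11.5, 12.5 and 13.5 dpc. With 2 arrays per group it cannot decide this. With a replicate block the calls were 0 for every comparison of KO with WT, 10 in KO limbs and 11 in WT limbs at the first step, and 4 in KO limbs and 10 in WT limbs at the second. Depth does not apply to arrays. The dim probe sets of Shh, Smo and Hhip (1438083_at) lie low in the range of all values, and with 2 arrays per group a difference that did not pass is not shown to be absent.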
